A study of Mus musculus with 12 samples.

Results

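Long CTCF HiChIP loops that were seen repeatedly were examined in mouse embryonic stem cells (ESC) and in neuronal committed cells (NCC). A loop was taken as an autosomal interaction of a CTCF HiChIP table with a score of 3 or more and with anchor midpoints 100 kb to 2 mb apart, the score being the number of read pairs that join its anchors. The ESC table held 777 such loops, which is 0.294% of its 264209 autosomal interactions at these distances. The NCC table held 739, which is 0.299% of 247221, so 1516 loops are described in all. Thinned to the read pairs of the NCC table, the ESC table would be expected to hold 658 such loops, so the order of the counts depends on depth. The loops were chosen by their CTCF HiChIP score and length, so that number, score and length are given as a description, while Hi-C, FGFR1 HiChIP, the genome sequence and the gene annotation were not used to choose them.

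Both cell types were of the E14Tg2A line. ESC were kept on gelatin in medium with 100 U/mL leukemia inhibitory factor (LIF). NCC were the same cells after 48 h in LIF-free medium with 1 μM retinoic acid. Each group was profiled by Hi-C, by HiChIP with a CTCF antibody and by HiChIP with an antibody to the FGF receptor FGFR1, with 2 biological replicates that the authors merged into 1 table. Both conditions come from 1 cell line in culture, no expression was measured in these tables, and the identity of the cells could not be checked against marker genes.

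CTCF is a zinc finger protein that binds a directional DNA motif. In the loop extrusion model, the ring-shaped cohesin complex reels in chromatin until it meets CTCF bound in the orientation that faces the growing loop, so that loop anchors often carry motifs that point towards each other. HiChIP joins DNA ends that lie close together in fixed nuclei and then enriches the joined fragments that a protein occupies, whereas Hi-C counts the joins without enrichment. CTCF loops are known for separating regulatory neighbourhoods, as at the Hox clusters and at the imprinted Igf2 locus.

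To show what the anchors of these loops carry, 30-base windows around matches to the 12-base CTCF core consensus are printed for the loops in which it could be read best. The windows are from the GRCm38 (mm10) assembly and are written 5′ to 3′ on the strand of the match, with the consensus in capitals. The first 4 windows belong to the 3 loops with the highest summed score in the ESC and NCC tables, which carried the consensus at 1 anchor only.
Wnt7a loop, left anchor, chr6:91286839-91286868, plus strand: gtggcacgcCCAGTAGGGGGCtcttccaga
Faap20 loop, left anchor, chr4:155095421-155095450, plus strand: acagaatgtCCACCAGGGGGCagtcaagac
Faap20 loop, left anchor, chr4:155094640-155094669, minus strand: gattctaggCCAGCAGGGGGCagtgtccac
Top1mt loop, right anchor, chr15:75679452-75679481, minus strand: tggccgtgtCCAGCAGGGGGCccactagcc
The next windows are pairs from 3 loops whose anchors both held the consensus and pointed towards each other, plus at the left and minus at the right.
Dact2 to Thbs2 loop, left anchor, chr17:14232822-14232851, plus strand: gaagtagtgCCAGCAGGGGGCacccttgac
Dact2 to Thbs2 loop, right anchor, chr17:14520722-14520751, minus strand: aggactctgCCAGTAGGTGGCaggcattct
Npvf loop, left anchor, chr6:50679335-50679364, plus strand: tcactacttCCACCAGGGGGCagactctac
Npvf loop, right anchor, chr6:50806730-50806759, minus strand: ccacctcaaCCAGCAGAGGGCggtgaaaga
Ddx11 to Mtcl1 loop, left anchor, chr17:66235291-66235320, plus strand: cccctccgaCCACTAGATGGCgccaaaagc
Ddx11 to Mtcl1 loop, right anchor, chr17:66454755-66454784, minus strand: caatatcaaCCACCAGGGGGCacccctccc
A match to these letters is a description of the sequence and does not show that CTCF was bound there.

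Most loops sat just above the threshold. In ESC 636 loops had a score of 3, 106 a score of 4 and 35 a score of 5 or more, with a highest score of 9. In NCC the numbers were 607, 99 and 33, with a highest score of 11. The 777 ESC loops held 2529 read pairs and the 739 NCC loops held 2409. Just outside the threshold lay 8409 ESC and 7598 NCC interactions of score 2, and 255023 and 238884 interactions were seen once.

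The loops were short for their distance range. The median length was 152 kb in ESC (quartiles 121 and 211 kb) and 158 kb in NCC (quartiles 122 and 236 kb), against 331 and 342 kb for interactions seen once. Lengths of 100 to 200 kb made up 72.1% of ESC loops and 66.3% of NCC loops. In ESC 26 loops and in NCC 32 loops spanned 500 kb or more, and 4 and 5 of them reached 1 mb. The ESC loops used 1444 distinct anchors and the NCC loops 1370, of which 95 in each table served 2 loops or more.

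Few loops were called in both cell types. Both anchors of 41 loops overlapped those of a loop of the other table, which is 5.28% of ESC loops (95% Wilson interval 3.91 to 7.08) and 5.55% of NCC loops (4.12 to 7.44). When any read pair in the other table was counted, 28.3% of ESC loops and 31.1% of NCC loops were found there. That share rose with the score. In ESC 2.51% of interactions seen once were found in the NCC table, 9.18% of those of score 2, 24.4% of those of score 3, 40.6% of those of score 4 and 62.9% of those of score 5 or more. In NCC the same shares were 2.67%, 10.4%, 27.5%, 43.4% and 60.6%. The other CTCF table had an anchor at both ends of 65.6% of ESC loops and 69.8% of NCC loops, and the remaining loops could not be found there whatever their read pairs. Intervals here and below cover counting error only, because the replicates were merged and give no spread.

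**Figure D1:**
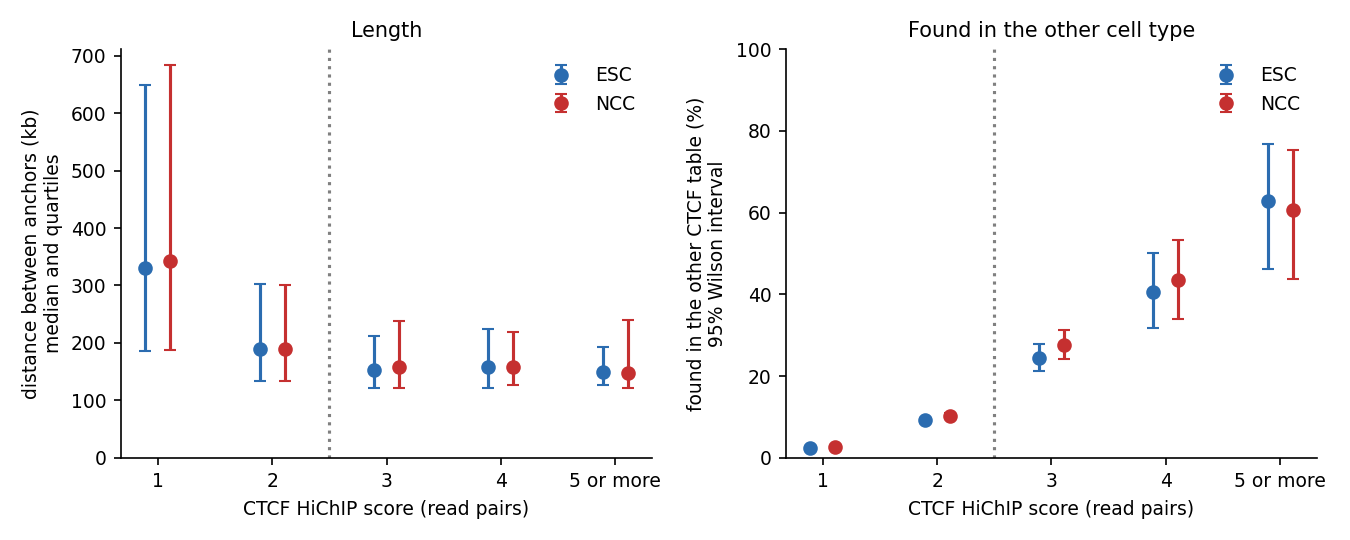
Length and sharing of autosomal CTCF HiChIP interactions by score. The left panel gives the distance between anchors in kb (median, bars to the quartiles) and the right panel the percent found with any score in the other cell type's CTCF table (bars are 95% Wilson intervals), in ESC (blue) and NCC (red). The dotted line marks the threshold, right of which the medians lie near 150 kb and the shares run from 24.4% to 62.9%.

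Taken over all loops, CTCF signal was also present in the other cell type's CTCF table. NCC CTCF HiChIP held 413 read pairs at the ESC loops, 12.3 times (95% exact Poisson interval 11.2 to 13.6) the number expected for anchor pairs at the same distances. ESC CTCF HiChIP held 420 read pairs at the NCC loops, 11.9 times (10.8 to 13.1) the expectation. For interactions seen once the same ratios were 2.37 and 2.30. Over distance and anchor strength the ratios at the loops were 3.17 and 2.65, and 56.9% of the ESC and 55.4% of the NCC loops with anchors at both ends in the other table had no read pair there. The expectation was the mean score of all possible anchor pairs of that table in the same distance class.

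Hi-C, which used no antibody, joined the same anchor pairs far more often than their distance predicts. Over the 741 ESC loops with Hi-C anchors at both ends, ESC Hi-C held 6214 read pairs, 14.3 times (13.9 to 14.6) the distance expectation. Over 687 NCC loops, NCC Hi-C held 5621 read pairs, 15.0 times (14.6 to 15.4) the expectation. The excess rose with the CTCF score. In ESC it was 3.37 for score 1, 6.22 for score 2, 12.6 for score 3, 19.7 for score 4 and 27.7 for score 5 or more, and in NCC 3.45, 6.98, 13.6, 18.5 and 27.9. The following values also cover only pairs with Hi-C anchors at both ends. Just inside the threshold the median loop had 4 Hi-C read pairs, and 11.9% of ESC and 12.9% of NCC loops had none. Just outside it the median was 1 read pair, and 32.2% and 32.4% had none.

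Part of this excess went with the anchors themselves. Loop anchors held a median of 32 read pairs of their CTCF HiChIP table in ESC and 29 in NCC, against 12 and 10 for the other anchors. The loops were chosen by read pairs of the same table, which favours such anchors, so these medians are a description. When the Hi-C expectation also took in the strength of both anchors, the excess was 2.28 (2.23 to 2.34) in ESC and 2.64 (2.57 to 2.71) in NCC, against 1.13 and 1.24 for interactions seen once. The 1% strongest anchors touched 36.8% of ESC loops and 37.1% of NCC loops. Without them 491 ESC and 465 NCC loops were left, of which 2.65% and 2.80% were shared, and the excess over distance was 12.4 and 12.5.

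**Figure D2:**
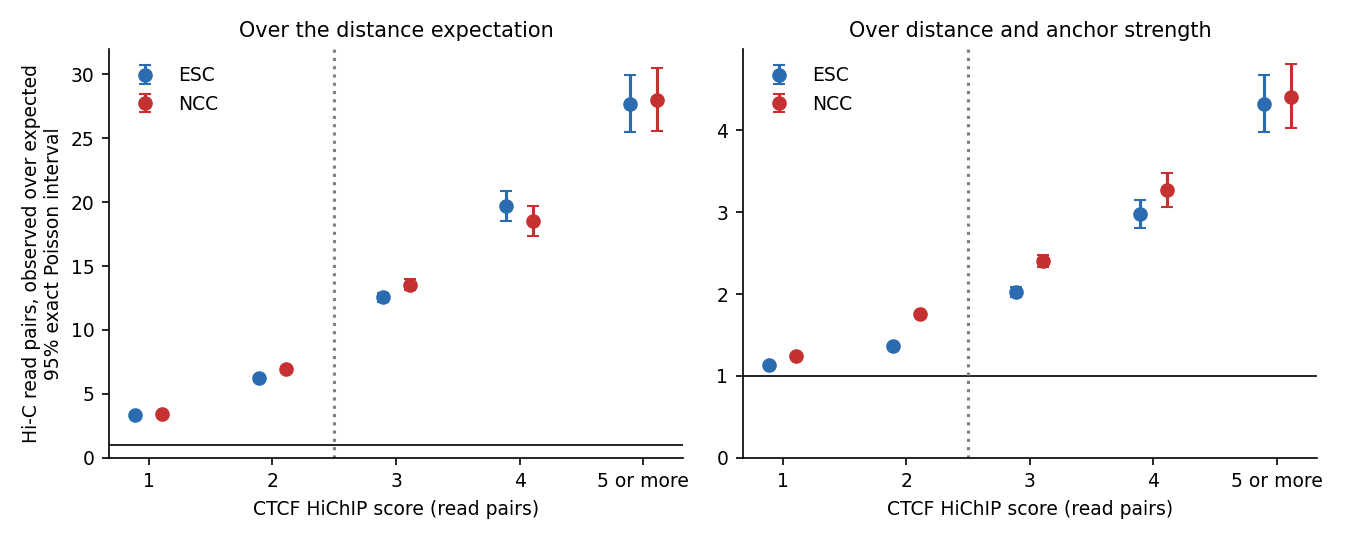
Hi-C read pairs of the same cell type at CTCF HiChIP anchor pairs, observed over expected, by CTCF score in ESC (blue) and NCC (red). Bars are 95% exact Poisson intervals, the solid line marks 1 and the dotted line the threshold. The ratio over distance climbs from 3.37 to 27.7 in ESC and the ratio over distance and anchor strength from 1.13 to 4.32.

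Taken one by one, 432 of the 741 ESC loops (58.3%) had more Hi-C read pairs than their distance predicts, against 9.45% of all 203010 CTCF interactions tested. In NCC 419 of 687 loops (61.0%) did, against 9.78% of 180016. The call was a one-sided exact Poisson test with Benjamini-Hochberg adjustment over all CTCF interactions of the table at an adjusted p of 0.05. By score the share called was 53.1%, 77.5% and 91.4% in ESC and 56.3%, 77.7% and 93.9% in NCC for scores of 3, 4 and 5 or more, and 25.2% and 27.5% for score 2. With anchor strength in the expectation 195 ESC loops (26.3%) and 215 NCC loops (31.3%) were called, against 1.43% and 2.22% of all interactions. These tests compare a pooled library with its own expectation and not the cell types.

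The Hi-C excess was centred on the anchor pairs. In bins of 5 kb, the ESC Hi-C ratio was 11.1 (10.7 to 11.4) at the ESC loops and 2.42 (2.38 to 2.46) when both anchors were moved by 20 to 30 kb, a 4.57-fold drop. In NCC it was 11.8 (11.4 to 12.3) and 2.48 (2.44 to 2.52), a 4.78-fold drop. Keeping 1 anchor in place and moving the other left the ratio between 4.36 and 4.84, and the centre was 2.44 to 2.71 times these values. The expectation here took in distance only. How much of the kept-anchor values and of the drop from the centre goes with anchor strength was not tested. At interactions of score 2 the centre was 4.57 in ESC and 5.05 in NCC, or 2.33 and 2.63 times the level around it.

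**Figure D3:**
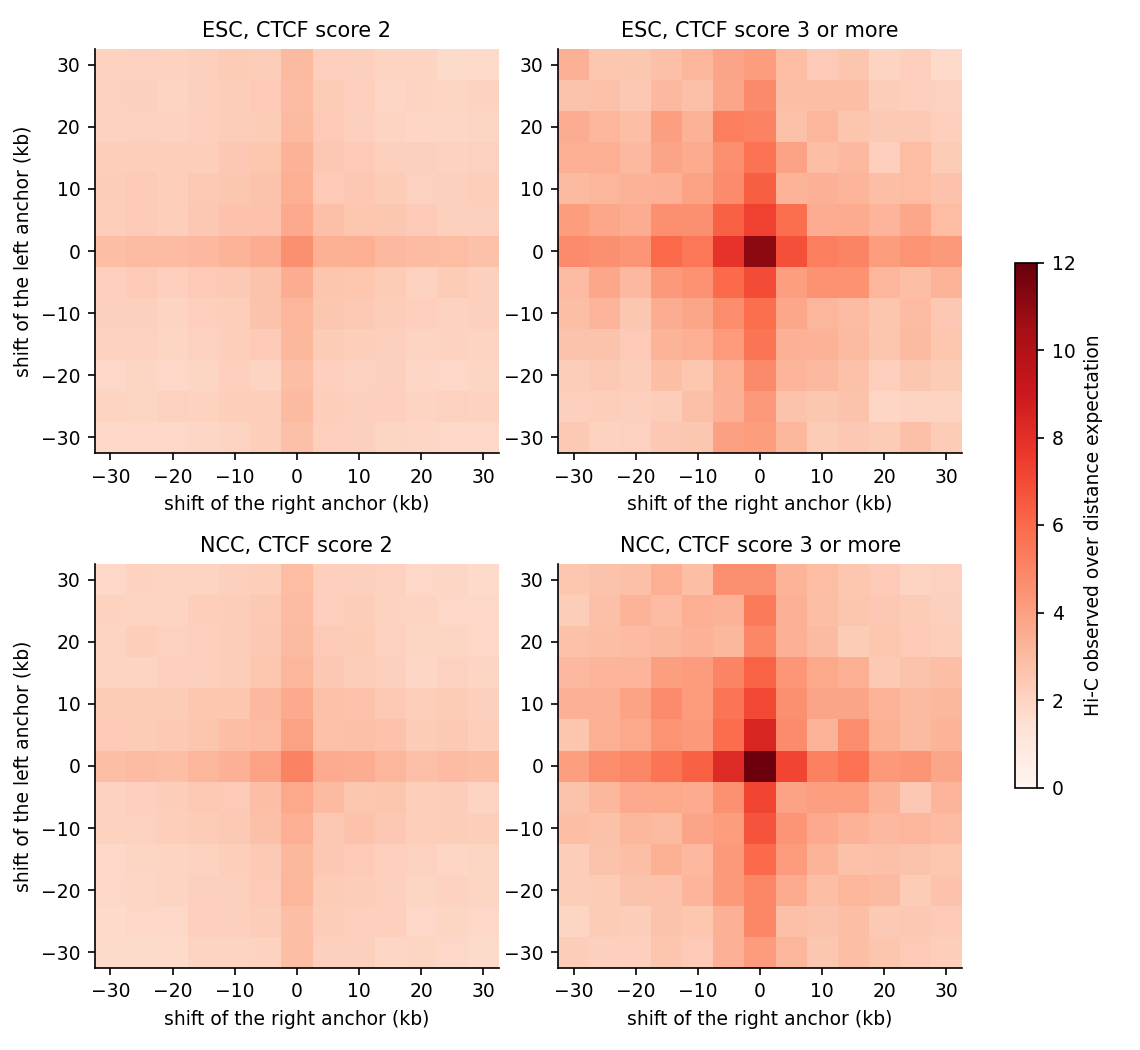
Hi-C read pairs around CTCF HiChIP anchor pairs, over the distance expectation, for ESC (top) and NCC (bottom), at score 2 (left) and at loops of score 3 or more (right). Axes give the shift of each anchor in steps of 5 kb. The centre reaches 11.1 and 11.8 at loops and 4.57 and 5.05 at score 2, and rows and columns through the centre stay above the corners.

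FGFR1 HiChIP, made with another antibody, held read pairs at part of the loops. ESC FGFR1 HiChIP held 630 read pairs at the ESC loops, 9.21 times (8.50 to 9.96) its distance expectation, and NCC FGFR1 HiChIP held 610 at the NCC loops, 10.2 times (9.45 to 11.1). Over distance and anchor strength the ratios were 2.66 and 3.16, and 50.1% of the ESC and 48.0% of the NCC loops with FGFR1 anchors at both ends had no read pair. Among loops found in FGFR1 HiChIP by the same rule (3306 in ESC and 3930 in NCC), 70 in each cell type overlapped a CTCF loop at both anchors, which is 2.12% and 1.78% of FGFR1 loops. They matched 71 ESC CTCF loops (9.14%) and 70 NCC CTCF loops (9.47%). The Hi-C excess over distance was larger at CTCF loops than at FGFR1 loops, which had 10.0 (9.87 to 10.2) in ESC and 9.16 (9.04 to 9.29) in NCC, and the intervals did not overlap. Over distance and anchor strength FGFR1 loops had 1.68 and 2.12, again below the CTCF loops. The FGFR1 tables were deeper, with 671858 read pairs at these distances in ESC and 812602 in NCC, against 274370 and 256489 for CTCF. A score of 3 was thus not the same stringency in both, and the effect of depth on this comparison was not tested.

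The anchors of the loops differed from other anchors of the same tables in sequence and position. The 12-base consensus lay in 16.3% of the 1444 ESC and 17.7% of the 1370 NCC loop anchors, against 2.51% and 2.63% of the other anchors. Loop anchors were longer, with medians of 3193 and 3187 bp against 2212 and 2244 bp, but among anchors of 2 to 4 kb the shares were 17.9% and 18.4% against 2.61% and 2.70%. The looser consensus CCANNAGNNGGC, read on both strands and including every match to the 12-base consensus, lay in 43.9% and 43.3% of loop anchors and in 16.4% and 16.2% of the others. Median GC content was 47.6% and 47.0% at loop anchors against 42.7% and 42.4%. The 19 autosomes held 12245 matches to the 12-base consensus, 6016 on the plus and 6229 on the minus strand. No match at an anchor says only that these letters were not in it.

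The consensus pointed into the loop at most anchors that carried it. Among loop ends with the consensus on 1 strand only, 190 of 252 in ESC (75.4%, 69.7 to 80.3) and 193 of 254 in NCC (76.0%, 70.4 to 80.8) pointed towards the other anchor. For interactions seen once the share was 57.8% in ESC and 58.9% in NCC, and for score 2 it was 68.1% and 70.8%. Loops of score 3 had 71.6% and 73.6%, loops of score 4 had 84.2% and 81.3%, and loops of score 5 or more had 95% and 92.3%. The highest class rests on 20 ESC and 13 NCC ends, and in NCC it lay below score 4 with the looser consensus (73.1% against 83.5%) and with matches within 2 kb of the anchors (75% against 83.9%). FGFR1 HiChIP loops had a similar share, 74.3% in ESC and 79.5% in NCC.

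**Figure D4:**
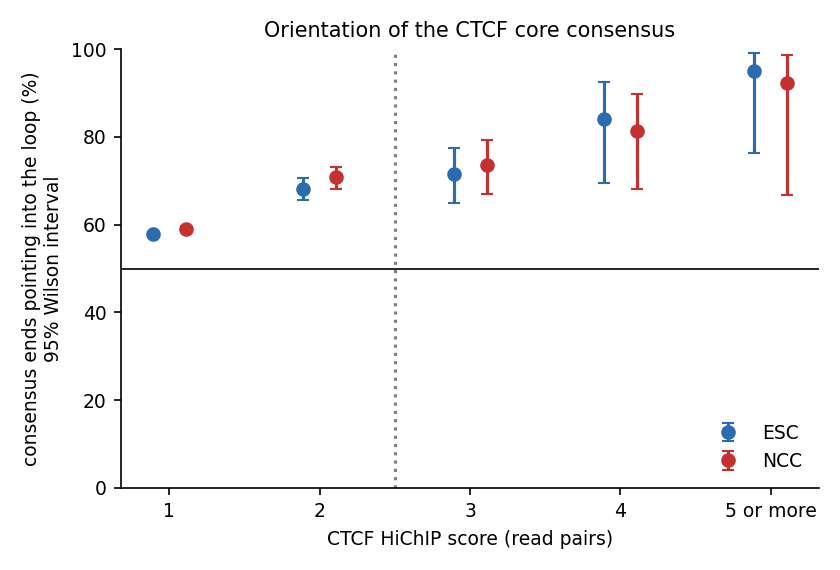
Percent of CTCF core consensus matches that point into the loop, by CTCF HiChIP score, in ESC (blue) and NCC (red), over loop ends with the consensus on 1 strand. Bars are 95% Wilson intervals, the solid line marks 50% and the dotted line the threshold. The share runs from 57.8% at score 1 to 95% at score 5 or more in ESC.

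Only 25 ESC and 20 NCC loops had an orientation at both anchors. Of these 10 in ESC and 12 in NCC were convergent, as printed above for the Dact2, Npvf and Mtcl1 loops, 13 and 6 had both matches on the same strand, and 2 and 2 pointed apart. Convergent pairs made up 40.0% (23.4 to 59.3) in ESC and 60% (38.7 to 78.1) in NCC, against 34% and 33.6% of such pairs among interactions seen once, so with this consensus the ESC interval held the latter share. It did not with the looser consensus described above, which gave 50.5% (40.7 to 60.3) in ESC against 28.4%, or with matches within 2 kb of the anchors, which gave 47.6% (33.4 to 62.3) against 31.7%. The Hi-C excess was 22.4 (18.4 to 27.0) at the convergent ESC loops and 10.2 (8.20 to 12.5) at those with matches on the same strand, and 21.2 (17.6 to 25.3) against 12.1 (8.85 to 16.2) in NCC. These values rest on the loops with Hi-C anchors at both ends, 10 and 12 in ESC and 10 and 6 in NCC. Among the convergent loops, 1 loop held 26 of the 110 ESC read pairs and 1 held 35 of the 120 in NCC. The intervals do not cover such spread between loops. At the diverging ESC loops no Hi-C read pair was found where 1.28 were expected, which allows a ratio of up to 2.88, whereas the diverging NCC loops held 7 read pairs where 1.01 were expected, a ratio of 6.91 (2.78 to 14.2). Loops with the consensus at 1 anchor had 18.3 and 17.4, and loops without it 12.8 and 13.7.

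Among the convergent loops, one of 288 kb over Smoc2 was named for its nearest genes, Dact2 and Thbs2. Dact2 is an antagonist of nodal signalling and Thbs2 a thrombospondin of the extracellular matrix. Their starts lay 25611 and 171998 bp from its intergenic anchors. This loop had a score of 6 in the ESC table and 1 in the NCC table. Hi-C held 21 read pairs there in ESC and 28 in NCC, 77.6 and 101 times the distance expectation. The 129 kb Npvf loop, named for the nearest gene, which encodes a neuropeptide precursor, had a score of 5 in NCC and 0 in ESC, with 5 and 6 Hi-C read pairs in ESC and NCC. The 221 kb Ddx11 to Mtcl1 loop was called in both tables with scores of 3 and 4, and had 14 and 10 Hi-C read pairs. Thus 2 of these 3 loops with paired consensus were above threshold in 1 table only while Hi-C showed them in both cell types.

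A transcription start site lay at 20.9% of ESC and 20.8% of NCC loop anchors, against 7.75% and 7.99% of other anchors. At least 1 anchor held a start site in 36.7% of ESC loops and 37.9% of NCC loops, against 20.6% and 20.7% of interactions seen once and 29.3% and 28.7% of those of score 2. Both anchors did in 41 ESC loops (5.28%) and 40 NCC loops (5.41%). The Hi-C excess over distance did not rise with the number of anchors at start sites. It was 13.4, 16.5 and 12.1 in ESC and 14.6, 16.0 and 13.1 in NCC for 0, 1 and 2 anchors. Over distance and anchor strength it fell with that number, from 2.55 to 2.07 and 1.56 in ESC and from 2.88 to 2.43 and 1.94 in NCC. Intergenic sequence made up 32.1% and 32.9% of loop anchors against 42.2% and 42.6% of the others. The median loop had 1 protein-coding gene wholly inside it, and 34.2% of ESC and 41.9% of NCC loops had none.

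The loop with the highest summed score of both tables lay at Wnt7a, which encodes a WNT ligand of the nervous system and limb. It joined the start of Wnt7a (chr6:91411337-91413307 in the ESC table) to an intergenic anchor 125 kb away (chr6:91284214-91290564), the one with the plus-strand consensus printed above. Its score was 9 in ESC and 11 in NCC. ESC Hi-C held 60 read pairs and NCC Hi-C 65, 44.0 (33.6 to 56.7) and 47.2 (36.4 to 60.2) times the distance expectation. FGFR1 HiChIP held 0 read pairs in ESC and 10 in NCC. Both CTCF and both Hi-C libraries thus had the loop at similar levels.

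The next loop, of 154 kb on chromosome 4, joined the start of Faap20, a member of the Fanconi anaemia DNA repair complex, to an intron of Morn1, with Ski, a repressor of TGF-β signalling, inside it. Its scores were 8 in ESC and 10 in NCC, and Hi-C held 73 and 74 read pairs, 132 (103 to 165) and 135 (106 to 170) times the expectation. FGFR1 HiChIP had 5 and 10 read pairs there. The left anchor (chr4:155093798-155096570) carried the consensus on both strands, as printed above.

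The third loop joined the start of Top1mt, the mitochondrial DNA topoisomerase I gene, to an intergenic anchor 129 kb away, over Ly6h, Gpihbp1 and Zfp41. Its scores were 8 and 7, and Hi-C held 15 read pairs in ESC and 12 in NCC, 23.2 and 18.4 times the expectation. The anchor with the Top1mt start (chr15:75677082-75680626) served 3 NCC loops, among them one of 113 kb to the start of Ly6h, a GPI-anchored protein of the brain.

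Other loops called in both tables with high summed scores lay at several developmental and structural genes. A 150 kb loop from an intron of Stpg1 over Grhl3, a transcription factor of epidermis and neural tube closure, had scores of 7 and 3 and 26 and 14 Hi-C read pairs, 45.4 and 24.6 times the expectation. A 121 kb loop from an intron of Col18a1, the collagen that yields endostatin, had scores of 5 and 4 and 50 and 32 Hi-C read pairs, 70.0 and 44.9 times the expectation. A 101 kb loop over Sec14l1 on chromosome 11 had scores of 3 and 5 and 28 and 29 Hi-C read pairs. Each of these loops had more Hi-C read pairs in the cell type with the higher score, as did the rest of the 10 shared loops with the highest summed scores except the Cfap77 loop, but the 95% intervals of the ESC and NCC values overlapped in each case.

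On chromosome 2, a 129 kb loop at Cfap77 had scores of 6 and 3 with 8 and 13 Hi-C read pairs, and a 132 kb loop from the start of Rapgef1, an exchange factor for the GTPase Rap1, to that of Gm13420 had scores of 5 and 4 with 6 and 4. The longest of the 10 shared loops with the highest summed scores spanned 609 kb of the zinc finger gene region at Zfp990 on chromosome 4, had scores of 3 and 6, and held 10 and 20 Hi-C read pairs, 106 and 215 times the small expectation for that distance. Related zinc finger genes fill that region, and the 31-base words of its own anchors were not shared.

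Of the loops with no read pair at overlapping anchors in the other CTCF table, those of the highest scores held Hi-C read pairs in both cell types, whereas others had none in either. In ESC the highest score was 6, at a 149 kb loop to Cacna2d2, a calcium channel subunit gene, with 11 Hi-C read pairs in ESC and 29 in NCC. The 112 kb ESC loop over Pirt, a regulator of sensory ion channels, had a score of 5 with 26 and 13. In NCC the highest was 7, at a 122 kb loop from Nmnat3, which makes NAD in mitochondria, with 13 Hi-C read pairs in ESC and 7 in NCC. The Cacna2d2 and Nmnat3 loops thus had more Hi-C read pairs in the cell type whose CTCF table did not hold them, and the Pirt loop had fewer. The Cacna2d2 difference was called between the Hi-C libraries (adjusted p = 0.033, exact binomial test), with 2 pairs of Hi-C anchors in ESC and 1 in NCC. The Nmnat3 and Pirt differences were not called.

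A case of split anchors was seen at Alpl, the tissue-nonspecific alkaline phosphatase gene. The ESC table held a 101 kb loop over Alpl and the NCC table a 105 kb loop from Rap1gap over Alpl, each with a score of 5 and a score of 0 in the other table because their left anchors were adjacent and did not overlap. Both had 25 Hi-C read pairs in ESC and 26 in NCC. With anchors allowed to lie within 10 kb of each other, 10.8% of ESC and 12.4% of NCC loops were shared.

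Further loops of the NCC table alone, each with a score of 5, lay at Ephb2, an ephrin receptor of axon guidance, with 37 Hi-C read pairs in ESC and 14 in NCC, between Zfp286 and the start of Tvp23b, with 8 and 9, and between the starts of Arfgap2, a COPI coat regulator, and Lrp4, the agrin receptor of the neuromuscular junction, with 4 and 8. A further pair of ESC loops of score 6 and 5 on chromosome 8 (chr8:20329561-20525575 and chr8:19702337-20262382) joined anchors that shared 69.9% and 32.6% of their 31-base words. They held 6 and 20 ESC Hi-C read pairs and 4 and 24 NCC Hi-C read pairs. Whether reads of such repeated sequence were placed at the right copy was not tested.

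Loops whose anchors shared 5% or more of their 31-base words numbered 24 in ESC (3.09%) and 2 in NCC (0.271%). They were long, with a median of 487 kb in ESC against 151 kb for the rest, and 11 of the 26 ESC loops of 500 kb or more were of this kind. The Hi-C excess of loops of 500 kb or more was 61.1 (50.6 to 73.3, 117 read pairs) in ESC and 56.3 (47.0 to 66.8, 129 read pairs) in NCC. Without loops of shared sequence it was 24.2 (15.9 to 35.1, 27 read pairs) in ESC and 52.2 (43.1 to 62.6, 116 read pairs) in NCC. The loops of 100 to 500 kb had 14.1 and 14.7.

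The longest loops had few Hi-C read pairs. The 1968 kb ESC loop near Limk2 and Znrf3 on chromosome 11 had a score of 4, 43 protein-coding genes inside it and 5 and 8 Hi-C read pairs in ESC and NCC, with 8.44% of 31-base words shared by its anchors. The 1903 kb ESC loop near Drg2 and Ttc19 and the 1283 kb ESC loop near Gna12 and Foxk1 had none in either Hi-C library. The 1799 kb ESC loop of the Zfp990 to Zfp978 region had 8 and 10, with 10.2% of words shared. In NCC, the 1040 kb loop to the start of Bcl11b, a zinc finger transcription factor of cortical neurons and T cells, had 4 and 2, whereas the other 4 loops of 1 mb or more had at most 1 read pair in either library, 2 of them lacking a Hi-C anchor in at least 1 library. Over distance, the ESC and NCC ratios were 356 and 550 at the Limk2 loop and 512 and 312 at the Zfp990 to Zfp978 loop. They were 103 and 51.0 at the Bcl11b loop, and the single NCC read pairs gave 25.5 and 30.4.

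The loops with the highest Hi-C ratio over distance, among those with at least 10 Hi-C read pairs in each cell type, were longer than most. A 278 kb NCC loop from Ptpa, an activator of protein phosphatase 2A, had 23 Hi-C read pairs in ESC and 68 in NCC, the latter 226 times the distance expectation but 1.75 times the expectation that takes in anchor strength. A 475 kb ESC loop from Btbd9 to Glp1r, the receptor for glucagon-like peptide 1, had 31 and 18 Hi-C read pairs and was at 210 times the distance expectation in ESC. A 514 kb ESC loop joined Catsperg1 and Catsperg2, paralogous subunits of a sperm calcium channel, with 20 and 14 Hi-C read pairs at 161 times the expectation in ESC, and its anchors shared 7.59% of their words.

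Among the 20780 autosomal protein-coding genes, 246 (1.18%) had a start site at an ESC loop anchor and 229 (1.10%) at an NCC loop anchor, 445 in either. Inside ESC loops lay 1404 genes (6.76%) and inside NCC loops 1037 (4.99%). The gene lists are given beside these shares as counts, and a list of neighbouring genes counts once per gene although 1 loop can hold many.

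Of the 39 Hox genes, which pattern the body axis and respond to retinoic acid, 1 had a start site at an ESC loop anchor and 1 at an NCC loop anchor. In ESC it was Hoxa7, with a 609 kb loop that had 0 and 1 Hi-C read pairs in ESC and NCC and a 215 kb loop to Skap2 that had 1 and 7. In NCC it was Hoxb7, with a loop of 388 kb and score 5 to Skap1, an adaptor of T cell adhesion. That loop held 1 Hi-C read pair in ESC and 11 in NCC, the latter 60.01 times (29.96 to 107) the distance expectation. A second Hoxb7 loop of 576 kb and score 4 reached Copz2, a coat protein gene, and held 3 and 8. Neither Hoxa7 nor Hoxb7 loops had a read pair in the other CTCF table.

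Inside the loops lay 16 Hox genes in ESC and 9 in NCC, over 4 and 8 loops. The ESC count included Hoxb13 and the whole HoxD cluster inside an 849 kb loop with a score of 3 and with 1 Hi-C read pair in ESC and 0 in NCC. The NCC count came from Hoxb1 to Hoxb6 inside the Hoxb7 loops, from Hoxb13, and from Hoxc12 and Hoxc13. The Hoxb7 loops of 388 and 576 kb held 11 and 8 read pairs in NCC Hi-C. These counts are not comparable with those of the longer HoxD loop, which are given here without the distance expectation. At the NCC loops of 1044 and 1144 kb, a single NCC Hi-C read pair was 25.5 and 30.4 times that expectation. Counts of 1 and 0 at the HoxD loop therefore cannot show whether Hi-C lacked it.

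Of 32 genes of retinoid metabolism and Hox cofactors, 1 had a start site at an ESC anchor and 2 at an NCC anchor. In ESC it was Stra8, a retinoic acid-induced gene of meiosis, with a score of 3 and 2 and 1 Hi-C read pairs in ESC and NCC. In NCC they were Aldh1a2, which makes retinoic acid, with 0 and 3 Hi-C read pairs, and the Hox cofactor Meis1, with 2 loops that had 13 and 16 and 2 and 0. Inside loops lay 2 of these genes in ESC and 6 in NCC, among them Crabp1 and Crabp2, which carry retinoic acid in the cell. The 110.7 kb Crabp1 loop had 3 Hi-C read pairs in each cell type and the 102 kb Crabp2 loop, which also held Nes, a filament gene of neural progenitors, had 8 in ESC and 5 in NCC.

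Of 55 FGF and WNT ligands and receptors, Wnt7a and Wnt7b had a start site at an ESC anchor and Wnt7a at an NCC anchor. The 109 kb ESC loop at Wnt7b, a WNT ligand of lung and nervous system, had a score of 4 and 21 and 23 Hi-C read pairs in ESC and NCC. Inside loops lay 6 of these genes in ESC, among them Fgf3 and Fgf4, and 4 in NCC, among them Fgfr1, the receptor that the other HiChIP antibody targets. The 320 kb Fgfr1 loop had a score of 4 in NCC and 1 in ESC, and 28 and 27 Hi-C read pairs.

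Of 40 imprinted genes 3 had a start site at an ESC loop anchor and 0 at an NCC anchor. Igf2, a fetal growth factor, was joined to an exon of Lsp1 over 187 kb by a loop with a score of 3 in both tables, with 16 Hi-C read pairs in ESC and 41 in NCC. In the NCC table the anchor held only the start of the overlapping predicted gene Gm49394, and Igf2 was counted inside. A 399 kb ESC loop between the starts of Kcnq1, a potassium channel, and Phlda2, a placental growth regulator, held Cdkn1c and had 0 and 2 Hi-C read pairs. The parental alleles cannot be told apart in these tables.

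The start sites of 26 pluripotency genes and 44 mesoderm and endoderm regulators were at no loop anchor. Inside ESC loops lay 6 pluripotency genes and inside NCC loops 2. Nanog, a core factor of pluripotency, and Dppa3 were inside a 116 kb ESC loop with no Hi-C read pair in either cell type, and Nanog was inside a different 126 kb NCC loop with 5 and 10. Sall4, another stem cell factor, was inside a 139.3 kb ESC loop of score 4 with 10 and 12 Hi-C read pairs and a 114 kb NCC loop with 8 and 1. Of the mesoderm and endoderm regulators 7 lay inside ESC loops and 5 inside NCC loops, among them Tbx4 in both.

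Of 51 neural regulators, Lhx5, a homeodomain factor of the forebrain, alone had a start site at an anchor, in 2 NCC loops to Rbm19 with 7 and 7 and with 4 and 8 Hi-C read pairs in ESC and NCC. Inside loops lay 4 neural regulators in each cell type, Hes3, Hes5, Neurod2 and Notch1 in ESC and Hes5, Nes, Notch1 and Sox1 in NCC. Of 16 genes for CTCF, cohesin and their regulators, Nipbl, the cohesin loader, was at an NCC anchor with 4 and 1 Hi-C read pairs, and 5 lay inside ESC and 2 inside NCC loops, Ctcf itself in both. Of 81 ribosomal protein genes Rpl9 was at an NCC anchor, with 1 and 2 Hi-C read pairs. None of 71 histone cluster genes was at an anchor or inside a loop, and of 1100 olfactory receptor genes 28 lay inside 5 ESC loops and 0 inside NCC loops.

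Loops with a start site of a protein-coding gene at each end gave further named pairs, chosen here after their values were seen. Arap3, a regulator of small GTPases, and Pcdh1, a protocadherin, were joined over 215 kb with a score of 5 in ESC and 1 in NCC and with 10 and 22 Hi-C read pairs. Mertk, a receptor for the clearance of dying cells, and Tmem87b were joined with a score of 4 in NCC and 0 in ESC and with 19 and 25.

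The Hi-C libraries were then compared with each other at the loops, after scaling to their 5223480 ESC and 5184149 NCC autosomal read pairs 100 kb to 2 mb apart. At the 41 loops called in both cell types, Hi-C counted 638 read pairs in ESC and 643 in NCC. The log2 of the scaled NCC count divided by the ESC count, given below as the log2 ratio, was 0.02 (−0.14 to 0.18, p = 0.80, two-sided exact binomial test). At the 736 loops of ESC alone the counts were 5576 and 5602, a log2 ratio of 0.02 (−0.04 to 0.07, exact binomial p = 0.52). At the 698 loops of NCC alone they were 4490 and 5001, a log2 ratio of 0.17 (0.11 to 0.22, exact binomial p = 2.07e-08), so Hi-C read pairs were 1.12 times higher in the NCC library. NCC interactions of score 2 had a log2 ratio of 0.16 and those of score 1 0.07, and the median over single loops was 0.01 in all 3 groups. Scaled instead by what distance and anchor strength predict in each library, the log2 ratio was 0.23 at loops of both tables and 0.13 at loops of ESC alone, both past the threshold, and scaled to all autosomal read pairs both were below 0. These p-values compare pooled libraries on their read pairs and not the cell types, since no replicate spread is known.

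Loops called in both tables had a larger Hi-C excess than the others. It was 26.5 (24.5 to 28.7) against 13.6 (13.2 to 13.9) in ESC and 28.8 (26.6 to 31.2) against 14.1 (13.7 to 14.5) in NCC. The excess was also present in the Hi-C library of the other cell type. The ESC loops held 6245 NCC Hi-C read pairs, 15.0 times (14.6 to 15.4) the NCC expectation, and the NCC loops held 5092 ESC Hi-C read pairs, 13.1 times (12.8 to 13.5) the ESC expectation.

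**Figure D5:**
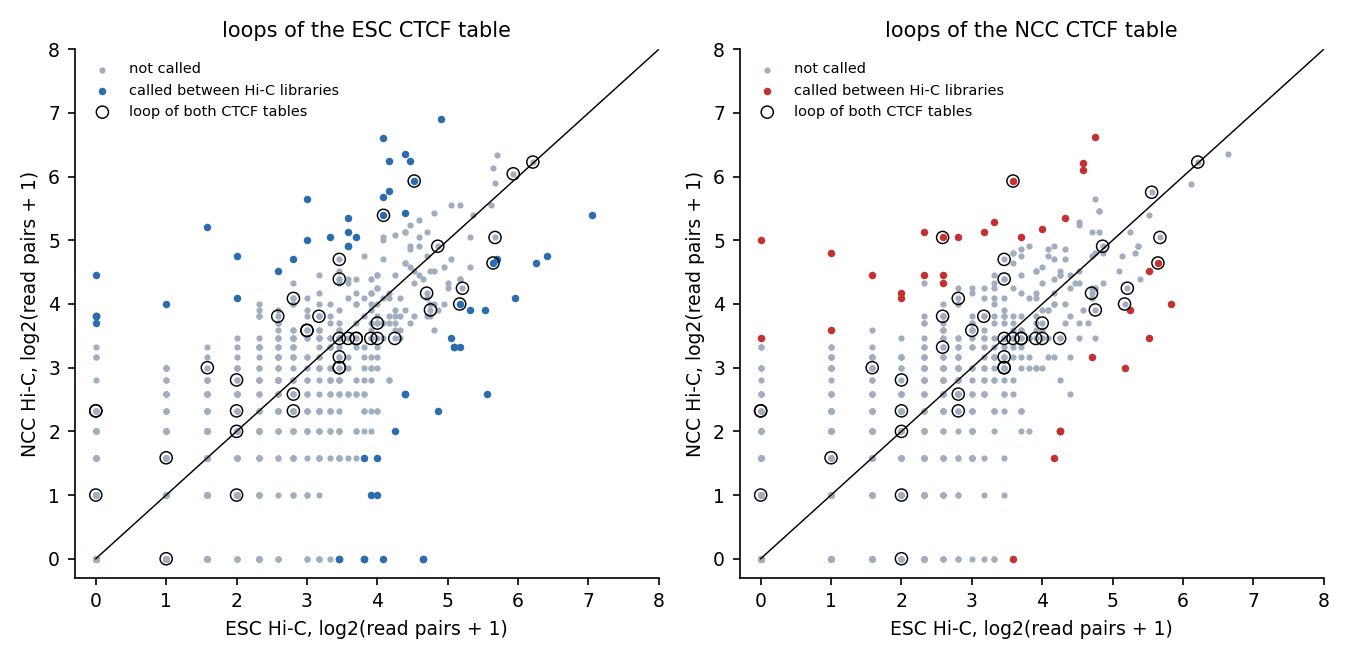
Hi-C read pairs in ESC (horizontal) and NCC (vertical), as log2 of read pairs plus 1, for each loop of the ESC (left) and NCC (right) CTCF tables. Coloured points were called different between the Hi-C libraries, rings mark the 41 loops of both tables and the line marks equal read pairs. Most points lie along the line and called loops lie on both sides of it.

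Single loops differed between the Hi-C libraries no more often than other CTCF anchor pairs. Of 714 loops with at least 10 Hi-C read pairs in both libraries together, 51 (7.14%) were higher in NCC, against 8.91% of all 19056 CTCF anchor pairs tested, and 41 (5.74%) were higher in ESC, against 6.36%, in two-sided exact binomial tests with Benjamini-Hochberg adjustment over all pairs. Loops of the ESC table gave 29 in each direction, and loops of the NCC table gave 22 higher in NCC and 12 higher in ESC. Some called loops had no Hi-C anchor in 1 of the libraries. Among loops with Hi-C anchors at both ends in both libraries, 45 of 702 were higher in NCC and 31 in ESC, against 7.03% and 4.67% of all CTCF anchor pairs of that kind. Those named next are of this kind and were chosen after their values were seen.

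Among loops higher in NCC, the Hoxb7 loop of 388 kb rose from 1 to 11 read pairs (log2 ratio 2.95, adjusted p = 0.028, exact binomial test). At Igf2 the 187 kb loop of the ESC table rose from 16 to 41 (1.34, adjusted exact binomial p = 0.011), and the 190 kb NCC loop with Igf2 inside rose from 5 to 32 (2.57). Near Myh9, the non-muscle myosin heavy chain gene, an ESC loop from the start of Apol8 to Txn2 rose from 16 to 96 (2.56). Read pairs also rose from 11 to 60 at an NCC loop from Slc35b1 over Spop, an adaptor of a ubiquitin ligase (2.41). The matching loop of the ESC table, with wider anchors, rose less, from 22 to 60 (1.44). Its anchors took in 2 pairs of Hi-C anchors in ESC and 1 in NCC, so the size of the rise depends on the anchors. Read pairs rose from 3 to 16 at an NCC loop over Tbx5, a T-box factor of heart and forelimb (2.25). At an ESC loop with the transcription factor genes Nfix and Lyl1 both at its left anchor, they rose from 29 to 119 (2.03). The ESC loop to the start of Nog, an antagonist of BMP signalling, rose from 9 to 32 (1.79).

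Among loops higher in ESC, an NCC loop over Sox1, a transcription factor of neural progenitors, fell from 17 to 2 Hi-C read pairs (log2 ratio −2.80, adjusted p = 0.0098, exact binomial test). The ESC loop from the start of Prdm12, a factor of sensory neurons, fell from 15 to 1 (−3.36), and the ESC loop to Slit1, an axon guidance ligand, from 75 to 24 (−1.61). The ESC loop from Ghrh to Src, the tyrosine kinase gene, fell from 84 to 26 (−1.66). The ESC loop from Cnn2 over Gpx4 and Stk11 to Atp5d fell from 132 to 41 (−1.66), and the one between the starts of Cnn2 and Stk11, which encodes the kinase LKB1, from 61 to 16 (−1.89). Both Cnn2 loops had 2 pairs of Hi-C anchors in ESC and 1 in NCC, and the values of the second were 46.0 and 24.1 times the distance expectation. Loops of a table were thus found on either side, as with the Sox1 loop, which was called in NCC CTCF HiChIP and had more Hi-C read pairs in ESC.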

How the data were processed

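The 6 interaction tables of mouse E14Tg2A cells were used, 1 for each of ESC and NCC by Hi-C, CTCF HiChIP and FGFR1 HiChIP. Per the labels and methods, the authors processed reads with HiC-Pro and hichipper in mm10, each with default settings, and merged 2 biological replicates of each group, so no replicate error could be computed. The deposited counts are whole read pairs per anchor pair, without normalization. hichipper defines anchors separately in each library, so that the same locus can have different anchors, and duplicates were removed before counting. Totals were 1226039 and 1065662 read pairs for CTCF HiChIP, 20790622 and 21279750 for Hi-C, and 2679131 and 3232003 for FGFR1 HiChIP, in ESC and NCC. The samples of the labels number 12.

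Loops were autosomal interactions of score 3 or more, 100 kb to 2 Mb apart. Another library's score at a loop was the sum over its anchor pairs that overlap both anchors by 1 base. The distance expectation was the mean score over all possible anchor pairs in 20 distance classes per doubling. Anchor strength is the number of read pairs of an anchor in its table, not limited to these distances, and the second expectation scaled by it. Poisson and binomial tests were exact, with Benjamini-Hochberg adjustment over all interactions tested. They were tried only on counts simulated from the Poisson and binomial models that they assume. Such counts cannot show how the tests behave where real read pairs vary more. The log2 ratio of a single loop was taken after adding 0.5 read pairs to each library. Start sites and genes were taken from GENCODE vM21 and sequence from GRCm38. Python 3.11.15, pandas 2.3.3, numpy 2.4.6, scipy 1.17.1 and matplotlib 3.10.9 were used. Loops were named by summed score, by score in 1 table alone, by Hi-C ratio and by gene list. Some loops and genes that this rule names are not reported here. The loops and gene lists were chosen with earlier results of these data known. Alternatives changed the score threshold, the overlap, the strongest anchors, the expectation, the scaling, the consensus and the start sites.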

Additional observations from a re-analysis of the deposited data

Results flagged for a closer look

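The Hi-C log2 ratio of NCC over ESC was 0.15 higher at the 698 loops of NCC alone than at the 736 loops of ESC alone (p = 0.00023, two-sided Fisher's exact test on 4490 and 5001 against 5576 and 5602 read pairs). The test compares read pairs of pooled libraries. NCC interactions of score 2 and 1 had log2 ratios of 0.16 and 0.07, and ESC interactions of score 2 and 1 had 0.06 and −0.02, so the difference was not particular to the loops. Scaled by what distance and anchor strength predict in each library, the log2 ratios were closer to each other, 0.20 at loops of NCC alone and 0.13 at loops of ESC alone. The cause was not tested.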

How the results depend on the processing

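No paired analysis was possible because the replicates were merged in each table, and for the same reason no replicate could be left out. Of 79 alternatives over 23 results, 52 were labelled the same, 21 moved, 4 became stronger and 2 reversed. A share or median length was the same within the 95% interval of the main value, and a count within a fixed factor of it. A Hi-C or FGFR1 HiChIP excess was the same while its interval stayed above 1, even where it fell from 14.3 to 2.28 in ESC Hi-C. A log2 ratio was the same if its sign and, where tested, its side of the threshold held. With a score of 2 or more there were 9186 ESC and 8337 NCC loops with median lengths of 185 and 187 kb, with a score of 4 or more 141 and 132 loops, and without the 1% strongest anchors 491 and 465. The share of loops in common was 10.8% and 12.4% with anchors within 10 kb, 28.3% and 31.1% at any score in the other table, and 2.65% and 2.80% without the strongest anchors. Loops called above the Hi-C expectation fell to 195 and 215 with anchor strength. The log2 ratio of NCC over ESC Hi-C at shared loops and at loops of ESC alone turned to −0.023 and −0.028 when scaled to all autosomal read pairs, with neither past the threshold. Scaled by each library's expectation they were 0.23 and 0.13, and 0.23 and 0.14 with Hi-C anchors in both libraries, all past the threshold, so their sign and call depend on the scaling. At loops of NCC alone the ratio stayed positive and past the threshold in each test. The share of consensus ends pointing in was 69.5% in NCC with the looser consensus, and the share of loops with a start site at an anchor was 28.2% and 28.3% for protein-coding genes and 49.7% and 49.4% within 2 kb. The settings on shared sequence, on Hi-C anchors in both libraries, on each library's expectation, and on anchor strength for the calls and for FGFR1 HiChIP were chosen after seeing the data. Single loops rest on few read pairs, a score of 3 being 3 read pairs.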

Other observations

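Loops were spread unevenly over the 19 autosomes. Chromosome 11 held the most in both tables, 88 in ESC and 86 in NCC, or 7.22 and 7.05 per 10 mb, and the least dense chromosomes had 1.44 and 1.74 per 10 mb. Across the 19 chromosomes the number of loops per mb followed the number of protein-coding genes per mb with a Spearman rho of 0.65 in ESC and 0.63 in NCC, given as a description since anchors at start sites are part of both.

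The anchor with the most ESC loops was intergenic, near Col14a1 (chr15:55266245-55270586), with 4 loops. Anchors with 3 ESC loops included those at the starts of Psen2, a subunit of γ-secretase, and Dlx3, a homeodomain factor of skin and bone.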
